A study of Mus musculus with 3 samples.

Results

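The BCL2 family decides whether a cell keeps its mitochondria intact or opens them and dies. Its transcripts were examined in 3 acute myeloid leukemias (AML) without the microRNA miR-196b. The members were 10 genes chosen by symbol: the survival genes Bcl2, Bcl2l1 (BCL-XL) and Mcl1, the effectors Bax and Bak1, and the BH3-only genes Bcl2l11 (BIM), Bid, Bad, Bbc3 (PUMA) and Pmaip1 (NOXA). Each symbol had 1 row in the deposited table, so all 10 were found among its 28074 named symbols. The leukemias came from the spleens of 3 different moribund mice of 1 genotype, miR196b-/-Dnmt3afl/fl,Flt3ITD/ITD,Mx1Cre, called mice 1, 2 and 3 here. The titles give the Dnmt3a genotype as +/- while the genotype field gives fl/fl, and the labels state neither the age of the mice nor how Cre was induced. Flt3ITD is an internal tandem duplication that keeps the FLT3 receptor active, and Mx1Cre is a recombinase driven by an interferon-responsive promoter that is active in blood cells and in other tissues. Cells bearing c-Kit were enriched on magnetic beads before RNA was extracted. The study set these leukemias against control leukemias with miR-196b, which are samples of another series and are not analysed here. Every value below is a level in a knockout leukemia or a difference between 3 mice, and none is an effect of the deletion.

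Survival proteins hold their pro-death relatives in check by binding a short helix, the BH3 segment, in a groove on their surface. BAX and BAK, once released or directly activated, form pores in the outer mitochondrial membrane, through which cytochrome c escapes and starts the caspase cascade. BH3-only proteins are the sensors of stress, cytokine loss and DNA damage, and each binds its own set of survival proteins: NOXA mainly MCL1 and A1, BAD mainly BCL2 and BCL-XL, and BIM and PUMA all of them. Myeloid leukemia cells commonly depend on BCL2 or MCL1, and drugs that fill their grooves are used or studied in this disease.

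The sequences that tie the deleted microRNA to the family are its seed and the matching letters in member transcripts. The mature miR-196b-5p is encoded at chr6:52230129-52230150 on the minus strand (GRCm38.p6, sequence from RefSeq). Its seed, bases 2 to 8, is in capitals.
miR-196b-5p: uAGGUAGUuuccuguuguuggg
The DNA letters that pair with the whole seed, ACTACCT, were searched in every protein-coding transcript of GENCODE M21 (GRCm38). Of the 10 members, 1 held them, and the match lay in the 3′ UTR. It was Bcl2l11, at chr2:128158766-128158772 on the plus strand, in 3 of its 5 protein-coding transcripts. The match is in capitals within 29 bases.
Bcl2l11 3′ UTR: attcttaacccACTACCTactcagaggat
The match was present in 7.25% of the 12034 protein-coding genes with a mean of at least 1 TPM (transcript abundance scaled to gene length and library total), counting 3′ UTRs. One match in 10 members is thus near the share of all genes. Whether BIM transcript is bound by the microRNA was not measured here.

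Promoters were read as the 250 bases before each RefSeq start of a member (GRCm38.p6). The 15 windows used here come from 9 of the 10 members, and Pmaip1 was left out. A search of both strands covered the STAT5 letters TTCNNNGAA, the FOXO letters TGTTTAC, the AP-1 letters TGANTCA, the cAMP response element TGACGTCA and its first part TGACGT, the CCAAT box, the E-box CACGTG and the TATA box TATAAA. The windows of Bcl2 and Mcl1 are shown because these survival genes were highest in different mice. Those of Bcl2l11 and Bbc3 are shown because they alone among these 15 windows held the FOXO letters, and FOXO factors are known activators of both genes. Capitals mark every motif match, on either strand.
Bcl2, chr1:106714291-106714540, minus strand: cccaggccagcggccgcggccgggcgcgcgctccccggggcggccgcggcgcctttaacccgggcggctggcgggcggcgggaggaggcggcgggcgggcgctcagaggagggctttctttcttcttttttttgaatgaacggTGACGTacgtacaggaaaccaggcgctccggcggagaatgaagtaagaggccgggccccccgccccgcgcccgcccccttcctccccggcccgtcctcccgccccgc
Mcl1, chr3:95658471-95658720, plus strand: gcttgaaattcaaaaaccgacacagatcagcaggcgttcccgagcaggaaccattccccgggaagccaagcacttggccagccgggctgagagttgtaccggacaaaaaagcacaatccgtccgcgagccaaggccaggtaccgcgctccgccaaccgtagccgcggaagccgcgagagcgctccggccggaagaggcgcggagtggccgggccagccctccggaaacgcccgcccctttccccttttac
Bcl2l11, chr2:128125788-128126037, plus strand: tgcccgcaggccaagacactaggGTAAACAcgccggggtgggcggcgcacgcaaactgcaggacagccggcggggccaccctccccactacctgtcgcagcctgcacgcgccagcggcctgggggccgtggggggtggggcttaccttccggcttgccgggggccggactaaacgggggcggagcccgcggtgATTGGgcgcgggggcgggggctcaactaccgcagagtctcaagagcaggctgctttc
Bbc3, chr7:16310011-16310260, plus strand: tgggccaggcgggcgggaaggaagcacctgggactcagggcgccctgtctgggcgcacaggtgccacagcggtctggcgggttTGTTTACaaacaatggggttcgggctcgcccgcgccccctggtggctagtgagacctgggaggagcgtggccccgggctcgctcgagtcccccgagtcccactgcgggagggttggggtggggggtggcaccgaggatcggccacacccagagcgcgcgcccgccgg
The Bcl2 window had a GC content of 74.8% and held 1 match, TGACGT. The Mcl1 window, at 64.4% GC, held none of these letters. TGTTTAC was found in 2 of the 15 member windows and in 3.17% of all 32851 windows of the same length. TTCNNNGAA was in 0 of the member windows and in 7.02% of all, TGANTCA in 0 and 6.75%, TGACGTCA in 0 and 1.55%, and TATAAA in 0 and 12.4%. TGACGT was in 1 member window and in 6.47% of all, CACGTG in 2 and 6.02%, and the CCAAT box in 4 and 33.8%. All windows had a median GC content of 52.4%. A match describes letters and not a bound site.

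Values are TPM per gene symbol, linear as deposited, so levels can be compared between genes. The 3 columns summed to 929731, 927169 and 928490. Scaling the columns to a common upper quartile shifted the median of all genes by -0.075 log2 units in mouse 1 and by 0.074 in mouse 3, so directions were read under both scalings. Read depth is unknown beyond the 30000000 reads planned, and TPM allows no counting interval. The transcript of the enrichment marker, Kit, was at 133 to 149 TPM, and those of the engineered genes Dnmt3a and Flt3 at 52.2 to 64.9 and 106 to 157 TPM. The loss of miR-196b itself could not be read from these values. The RNA is a bulk sample, in which fewer cells of a type and less RNA per cell cannot be told apart.

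All 10 members were expressed, with mean levels from 25.0 TPM (Bad) to 258 TPM (Mcl1). A mean of at least 1 TPM was reached by 54.1% of all named genes, at least 5 TPM by 40.5% and at least 0.1 TPM by 68.9%. Among the 15181 genes that reached it, the members stood between percentiles 59.3 and 96.9 of level, and 7 of 10 at percentile 75.3 or higher.

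**Figure D1:**
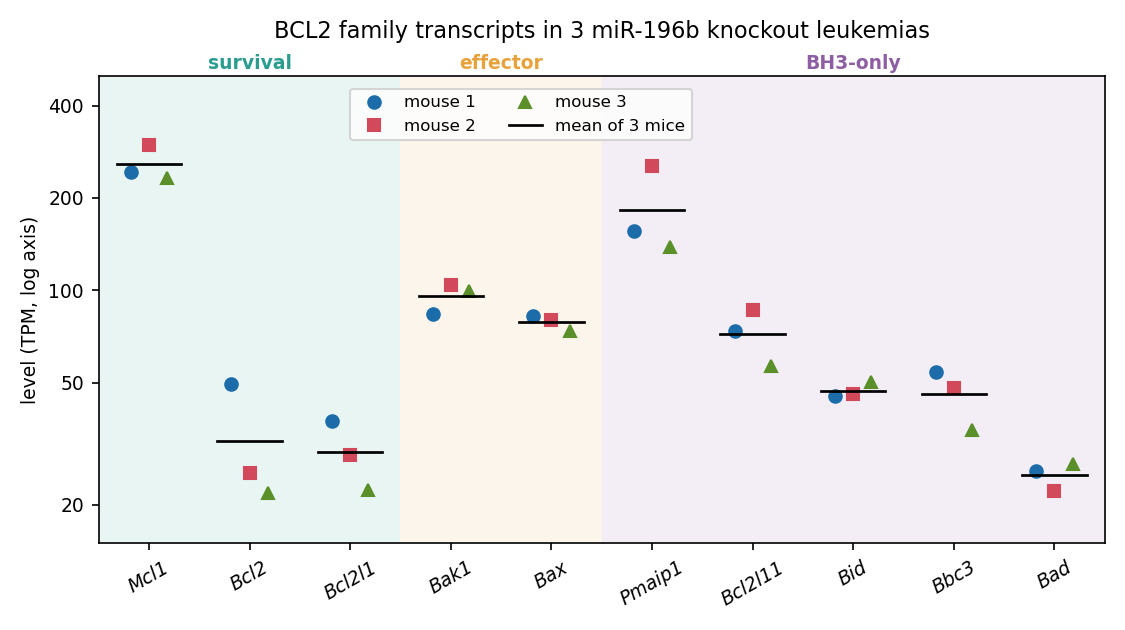
Level of each BCL2 family member in mice 1, 2 and 3 (TPM, log axis), with the mean of 3 mice as a line, grouped by role. Mcl1 and Pmaip1 are at 138 TPM or more in every mouse, while Bcl2, Bcl2l1 and Bad stay below 50 TPM.

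Among the survival genes, Mcl1 was far above the others. Mcl1 encodes a short-lived survival protein needed by blood stem and progenitor cells, and lies at chr3:95658788-95663176 on the plus strand (GENCODE M21, as are the gene positions below). Its level was 243, 299 and 232 TPM in mice 1, 2 and 3, a mean of 258 ± 35.7 TPM (SD, n = 3). Mouse 2 was the highest, at 1.29 times the level of mouse 3. On the log2(TPM + 1) scale, the scale of every SD in log2 units here, its SD was 0.19. Bcl2, the founding member and the target of venetoclax, lies at chr1:106538178-106714274 on the minus strand. It was measured at 49.5, 25.4 and 21.8 TPM, a mean of 32.2 ± 15.1 TPM (SD, n = 3). Mouse 1 stood apart from the other mice, at 1.95 times mouse 2 and 2.27 times mouse 3. Bcl2l1 encodes BCL-XL, the survival protein of platelets and red cell precursors, at chr2:152780668-152831728 on the minus strand. Its level was 37.6, 29.1 and 22.3 TPM, a mean of 29.7 ± 7.68 TPM (SD, n = 3). It was again highest in mouse 1 and lowest in mouse 3.

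Mcl1 made up 73.6%, 84.5% and 84.0% of the summed survival TPM, the lowest share being in mouse 1. The ratio of Mcl1 to Bcl2 was 4.92, 11.7 and 10.6, and that of Mcl1 to Bcl2l1 was 6.47, 10.2 and 10.4. These ratios lie within a library and do not depend on its scaling. Mouse 1 had the lowest of both, and Mcl1 was at least 4.92 times as abundant as either gene in all 3 mice. The ratio of Bcl2 to Bcl2l1 was 1.32, 0.873 and 0.976, so neither gene was the higher in every mouse.

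The effectors were close to each other in level. Bax, at chr7:45461697-45466898 on the minus strand, encodes a pore former that moves from the cytosol to mitochondria. Its level was 82.2, 80.3 and 73.8 TPM, a mean of 78.8 ± 4.40 TPM (SD, n = 3), and its SD of 0.08 log2 units was the smallest among the members. Bak1, at chr17:27019810-27029009 on the minus strand, encodes the pore former that resides in the mitochondrial membrane. Its level was 83.9, 104 and 99.3 TPM, a mean of 95.6 ± 10.4 TPM (SD, n = 3). Bak1 exceeded Bax in 3 of 3 mice, with a Bax to Bak1 ratio of 0.98, 0.774 and 0.744, so in mouse 1 they were nearly level. The mouse in which each effector was highest changed with scaling: Bax moved from mouse 1 to mouse 2 and Bak1 from mouse 2 to mouse 3.

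The BH3-only genes were led by Pmaip1. Pmaip1, on chromosome 18, encodes NOXA, the sensor that binds MCL1 and is a known target of p53. It was measured at 156, 254 and 138 TPM, a mean of 183 ± 62.1 TPM (SD, n = 3), with mouse 2 apart from the others at 1.84 times mouse 3. Bcl2l11, at chr2:128126038-128162547 on the plus strand, encodes BIM, which carries out death on cytokine withdrawal. Its level was 73.5, 86.5 and 56.8 TPM, a mean of 72.3 ± 14.9 TPM (SD, n = 3), again highest in mouse 2 and lowest in mouse 3. This is the gene whose 3′ UTR holds the seed match printed above.

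Bid, at chr6:120891930-120916853 on the minus strand, is cut by caspase-8 and links death receptors to mitochondria. It was at 45.1, 46.0 and 50.3 TPM, a mean of 47.2 ± 2.78 TPM (SD, n = 3), nearly equal in the mice. Bbc3, at chr7:16308393-16318205 on the plus strand, encodes PUMA, a sensor induced by p53 and by FOXO3. Its level was 54.2, 48.1 and 35.1 TPM, a mean of 45.8 ± 9.76 TPM (SD, n = 3), highest in mouse 1. Bad, at chr19:6941861-6951899 on the plus strand, encodes a sensor that growth factor signaling keeps inactive by phosphorylation, which transcript levels do not show. It was the least abundant member on average, at 25.8, 22.2 and 27.1 TPM, a mean of 25.0 ± 2.57 TPM (SD, n = 3).

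Pmaip1 took 44.1%, 55.6% and 44.9% of the summed BH3-only TPM, and Bcl2l11 20.7%, 19.0% and 18.5%. NOXA was thus the leading sensor transcript in each mouse. The ratio of Pmaip1 to its main partner Mcl1 was 0.643, 0.85 and 0.597, so Mcl1 exceeded it in all 3. Bcl2l11 exceeded Bcl2 in each mouse as well, by 1.48, 3.40 and 2.61 times, the least in mouse 1. The ratio of Bcl2l11 to Mcl1 varied less, at 0.302, 0.29 and 0.245.

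Ranked by mean, the order ran from Mcl1 through Pmaip1, Bak1, Bax, Bcl2l11, Bid, Bbc3, Bcl2 and Bcl2l1 to Bad. Only 3 of the 9 pairs of neighbours had ranges over mice that did not overlap: Pmaip1 above Bak1, Bak1 above Bax, and Bcl2l11 above Bid. The ranges of the other 6 pairs overlapped. Read within each mouse, Mcl1 was above Pmaip1 and Bbc3 above Bcl2 in 3 of 3 mice, by 0.54 ± 0.27 and 0.56 ± 0.39 log2 units (SD, n = 3). The remaining 4 pairs changed order between mice. Bcl2l1, Bcl2 and Bad could stand in any order, since the ranges of all 3 genes overlapped.

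Overlapping exons limit some of these values. In GENCODE M21, exons on the opposite strand overlap Bcl2 (D630008O14Rik), Bak1 (Ggnbp1), Bid (Bcl2l13) and Bad (Gpr137). Gm45808 overlaps Bax on the same strand. The libraries were stranded per the labels, but whether strand was used in counting is not given. D630008O14Rik, Ggnbp1, Gpr137 and Bcl2l13 had mean levels of 7.73, 7.40, 16.8 and 15.7 TPM. No level is given here for Gm45808, whose overlap with Bax cannot be resolved by strand. Values per gene also merge isoforms with opposing roles, such as the long and short forms of Bcl2l1, for which 8 protein-coding transcripts are annotated.

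The roles were then set against each other by their summed TPM. Survival genes summed to 331, 353 and 276 TPM, effectors to 166, 184 and 173 TPM, and BH3-only genes to 355, 457 and 308 TPM. Survival transcripts exceeded effector transcripts in 3 of 3 mice, by 1.99, 1.92 and 1.59 times, a mean log2 ratio of 0.87 ± 0.17 (SD, n = 3). The exact sign-flip permutation test gave p = 0.25, two-sided, which is the smallest p that 3 mice allow. Against the BH3-only genes, survival transcripts were lower in 3 of 3 mice, at 0.931, 0.773 and 0.897 times, a mean log2 ratio of -0.21 ± 0.14 (SD, n = 3; exact p = 0.25, two-sided). Neither contrast can pass a threshold of 0.05 in this design.

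**Figure D2:**
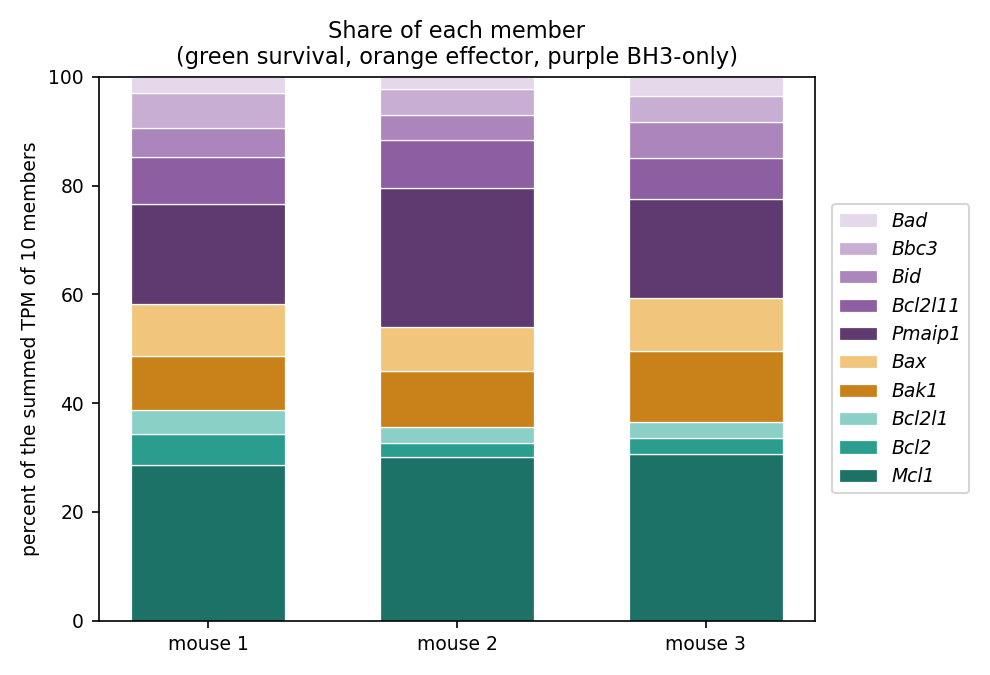
Share of each member in the summed TPM of the 10 members, as stacked bars for mice 1, 2 and 3 (percent). Survival genes hold 38.8%, 35.5% and 36.5% and Mcl1 alone 28.6%, 30.0% and 30.6%; the share of Pmaip1 is largest in mouse 2.

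As a share of the summed member TPM, survival genes held 36.9 ± 1.69%, effectors 20.3 ± 2.29% and BH3-only genes 42.8 ± 2.80% (SD, n = 3). The sums leave out relatives that are not members, among them the survival gene Bcl2a1b (mean 73.7 TPM) and Bnip3l, listed as BH3-only (mean 129 TPM). They also rest on their most abundant genes. Without Mcl1, Bcl2 and Bcl2l1 together came to 87.2, 54.6 and 44.1 TPM, and the survival to effector log2 ratio turned to -1.55. Averaged per gene on the log2 scale, with Mcl1 kept, it was -0.49, and the survival to BH3-only difference was 0.069. Mcl1 thus supplied the whole excess of survival over effector transcripts.

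Between mice, the members differed by amounts within the range of other genes, which were not matched to them for level. The median SD was 0.247 log2 units over the members and 0.208 over all genes with a mean of at least 1 TPM, and 5 of 10 members lay above that median. Bax, Bid, Bad, Bak1 and Mcl1 lay below it, with SDs from 0.08 to 0.19. After upper-quartile scaling, Bak1 (0.226) and Mcl1 (0.198) moved above the median of all genes (0.194), while Bax (0.029) stayed the steadiest member. Bcl2, Pmaip1, Bcl2l1, Bbc3 and Bcl2l11 lay above it, with SDs from 0.61 down to 0.30. Without Bcl2 the member median was 0.193. With mouse 1, 2 or 3 left out it was 0.228, 0.148 and 0.186, against 0.143, 0.179 and 0.189 for all genes, so the side on which the members fell depended on the mice included.

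**Figure D3:**
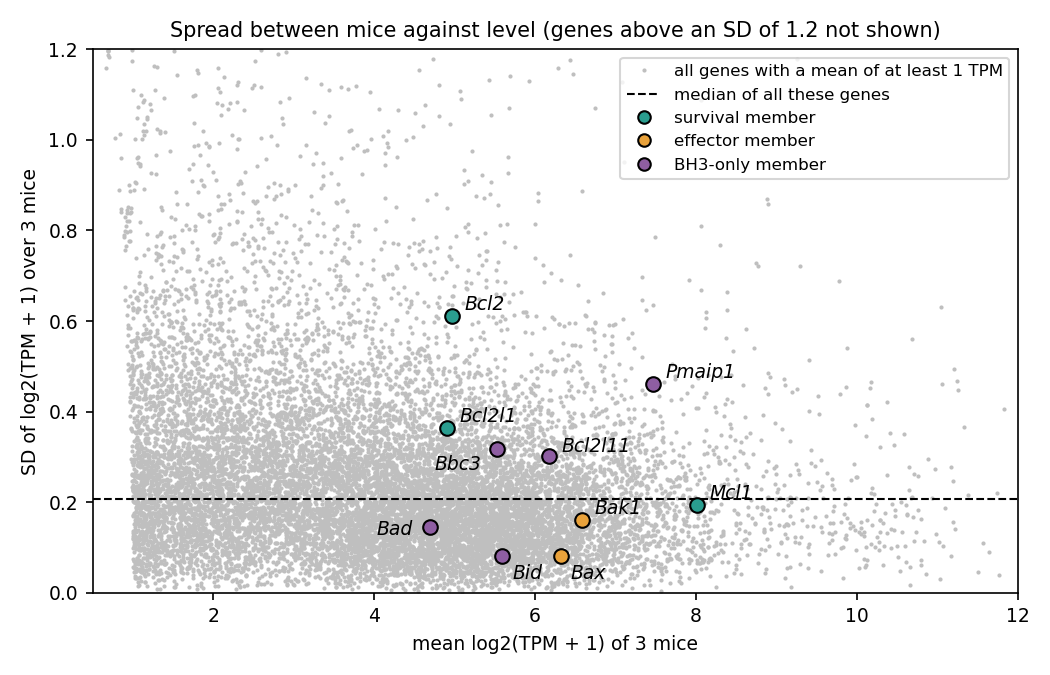
SD of log2(TPM + 1) over 3 mice against the mean, for all genes with a mean of at least 1 TPM (grey) and the members (colored by role); the dashed line is the median of all these genes, 0.208. Bcl2, at 0.61, has the largest SD among the members, and both effectors lie below the line, although Bak1 lies above the corresponding median after upper-quartile scaling.

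A difference of at least 2-fold between any pair of mice was found for 1 of 10 members, Bcl2, and for 8.57% of all genes with a mean of at least 1 TPM. The member count is near that background. Mouse 1 differed 2-fold from mouse 2 in 4.64% of all genes and from mouse 3 in 5.38%, while mouse 2 differed from mouse 3 in 2.9%. The Bcl2 difference was between mice 1 and 3, at 1.15 log2 units, and between mice 1 and 2 it was 0.93. After upper-quartile scaling the larger of these was 0.996, just under the threshold, and 0 of 10 members were called, against 8.59% of all genes. Without mouse 1 or without mouse 3 the count was 0 as well. Mouse 1 stayed the highest for Bcl2 under both scalings.

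**Figure D4:**
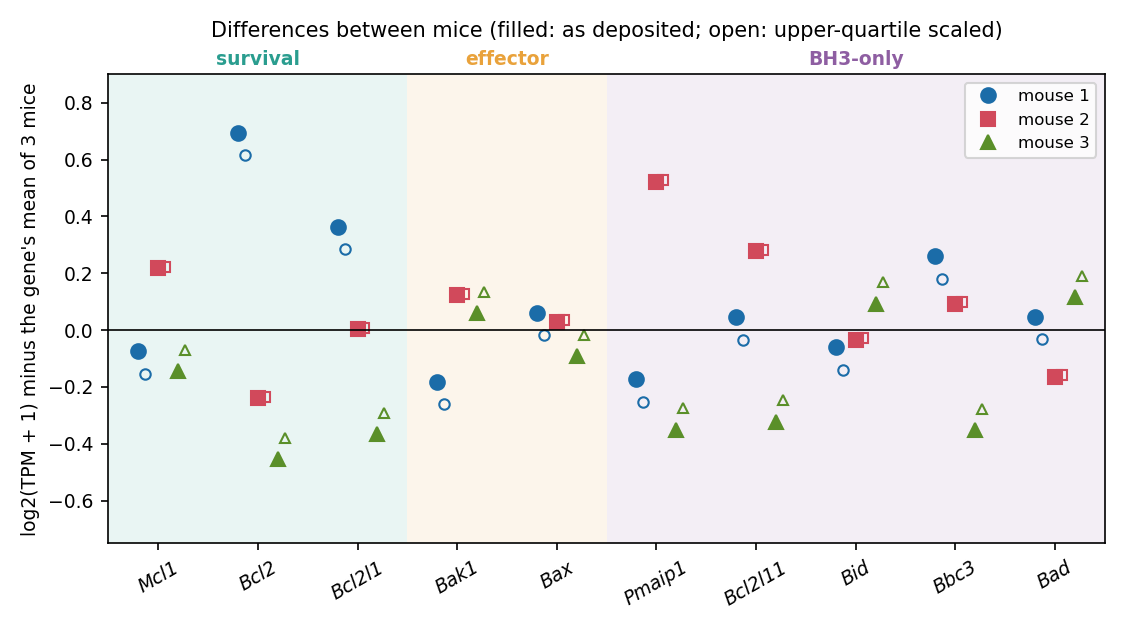
Difference of each mouse from the mean of 3 mice in log2(TPM + 1), for each member; filled symbols are values as deposited and open symbols are upper-quartile scaled. Bcl2, Bcl2l1 and Bbc3 are highest in mouse 1, and Mcl1, Pmaip1 and Bcl2l11 in mouse 2, under both scalings.

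The mice differed in which members were high. As deposited, 4 members were highest in mouse 1, 4 in mouse 2 and 2 in mouse 3, against 48.6%, 31.1% and 20.3% of all genes. After scaling the counts were 3, 4 and 3, against 35.1%, 32.6% and 32.3%, so the members were spread over the mice much as other genes were. The highest mouse was the same under both scalings for 8 of 10 members, the exceptions being Bax and Bak1. Mcl1, Pmaip1 and Bcl2l11 were highest in mouse 2, a survival gene together with 2 sensors that can bind its protein. Bcl2, Bcl2l1 and Bbc3 were highest in mouse 1, 2 survival genes with 1 sensor, PUMA, which can bind MCL1 as well.

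Marker lists of blood cell types differed between the mice as well. Mouse 1, where Bcl2 was highest, had the highest level for 5 of 8 stem and progenitor markers, which summed to 973, 886 and 822 TPM in mice 1, 2 and 3. That count was the same after scaling and is near the 48.6% of all genes highest in mouse 1 as deposited (35.1% after scaling). Mast cell and basophil markers summed to 87.1, 31.0 and 35.5 TPM, with 3 of the 4 detected highest in mouse 1 and Tpsb2 listed at 0 in all mice. As deposited, both lists summed highest in the mouse with the most Bcl2, and so did the T and NK cell markers given below. Sums after scaling were not computed. Dendritic cell markers summed to 541, 1032 and 703 TPM, with 6 of 8 highest in mouse 2 (31.1% of all genes), as were Mcl1, Pmaip1 and Bcl2l11. Flt3, an engineered gene in these mice, is 1 of these 6 and is counted among the stem and progenitor markers as well. Neutrophil markers summed to 4427, 7911 and 24470 TPM, all 10 highest in mouse 3 (20.3% of all genes), where none of the survival genes was highest as deposited. Mpo, Elane and Prtn3, which are also made by myeloid progenitors, are among these 10.

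Markers of 5 further cell types were read in the same way. Monocyte and macrophage markers summed to 309, 540 and 478 TPM, with 6 of 8 detected. As deposited, 0 of these 6 were highest in mouse 1, 3 in mouse 2 and 3 in mouse 3, against 48.6%, 31.1% and 20.3% of all genes. Erythroid markers summed to 188, 145 and 256 TPM, with 6 of 7 detected, all 6 highest in mouse 3 (20.3% of all genes as deposited). Megakaryocyte markers summed to 71.8, 47.1 and 90.7 TPM, with all 6 detected. None of these 3 lists summed highest in mouse 1. B cell markers summed to 47.7, 89.8 and 125 TPM, with 4 of 7 detected, and T and NK cell markers to 169, 122 and 165 TPM, with 6 of 8 detected. The T cell markers Cd3d, Cd4 and Cd8a were between 3.98 and 7.13 TPM in every mouse, and Cd3e was below 1 TPM. The part of these cell types in the differences of the BCL2 family was not tested.

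Other genes of the pathway were described from lists holding 52 genes, of which 50 had a row. A mean of at least 1 TPM was reached by 45 of them, against 54.1% of all named genes. The other 5 were Bcl2l10, Bik, Hrk, Bcl2l15 and Usp13, named after their values were seen. The median SD of the 45 was 0.173 log2 units, below the 0.208 of all genes, which were not matched to them for level. Of the 45, 2 (Bok and Pim2) differed by at least 2-fold between mice, against 8.57% of all genes. Without mouse 1 that count was 0, and without mouse 3 it was 1.

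Beside the members, 2 of 3 further survival genes, the 1 effector-like gene, 3 of 5 further BH3-only genes and 3 of 4 less settled relatives with a row were detected. The most abundant further survival gene was Bcl2a1b, an A1 gene of myeloid cells, at 61.5, 90.9 and 68.6 TPM. It was highest in mouse 2, as Mcl1 was. Its transcript is 98.2% and 99.1% identical to those of Bcl2a1a and Bcl2a1d over 817 nt, so its value is uncertain and may hold reads of those copies. Bok, an effector relative, was low, at 3.50, 1.33 and 0.785 TPM, highest in mouse 1. Bnip3l, which marks mitochondria for removal, had 153, 108 and 126 TPM. Bcl2l12, whose role is less settled, had 35.2, 33.1 and 35.8 TPM.

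Downstream of the pore, all 8 genes of caspase activation and all 6 inhibitor of apoptosis genes were detected. Birc3, a ubiquitin ligase of the inhibitor family, led the second list with 125, 149 and 123 TPM. All 8 genes of the death receptor arm, which reaches mitochondria through BID, were detected too, led by the caspase-8 inhibitor Cflar at 94.7, 108 and 95.2 TPM. Of these 22 genes, 0 differed by 2-fold between mice, against 8.57% of all genes with a mean of at least 1 TPM. All genes were not matched to these for level, and the difference was not tested.

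Of the regulators, 3 of 4 genes of MCL1 stability, all 3 mitochondrial VDAC channels and all 8 regulators of family transcription or phosphorylation were detected. Of the last 8, 6 were highest in mouse 1 as deposited and 4 after scaling. All 3 channels were highest in mouse 1 as deposited but 1 after scaling. Of all genes, 48.6% were highest in mouse 1 as deposited and 35.1% after scaling. Huwe1, a ubiquitin ligase that marks MCL1 for degradation, had 331, 287 and 240 TPM, above Mcl1 in mice 1 and 3 but not in mouse 2. Vdac2, a membrane channel that binds BAK, was even, at 212, 203 and 191 TPM. Ywhaz, a 14-3-3 protein that holds phosphorylated BAD, was the most abundant gene of the lists at 850, 811 and 647 TPM. Pim2, a kinase that phosphorylates BAD and is induced by FLT3 and STAT5 signaling, had 80.3, 32.8 and 24.5 TPM, a range of 1.67 log2 units. It was highest in mouse 1 and lowest in mouse 3 under both scalings, as were the survival genes Bcl2 and Bcl2l1 and the sensor Bbc3. In its own list Pim1, Stat5a and Akt1 were highest in mouse 1 under both scalings as well. Stat5b and Foxo3 were highest in mouse 3 under both. Trp53 and Ywhaz moved from mouse 1 to mice 3 and 2 after scaling. Flt3 itself was highest in mouse 2 under both. The share of all genes highest in mouse 1 and lowest in mouse 3 was not computed, and a link between Pim2 and the members was not tested.

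**Figure D5:**
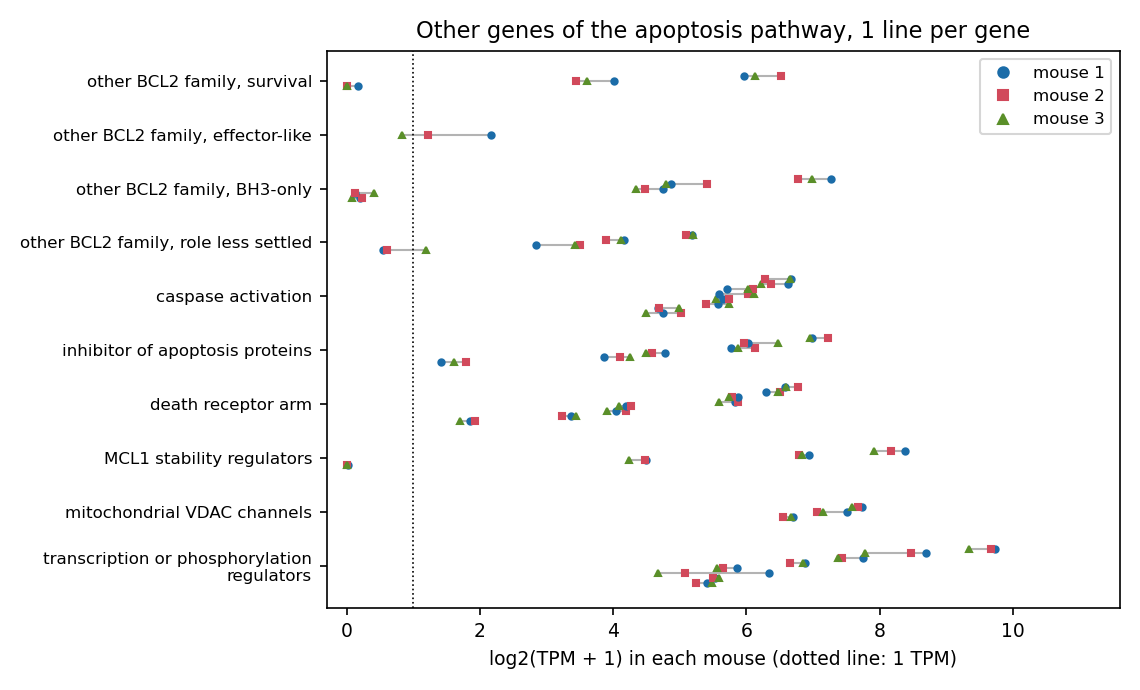
Level in each mouse (log2(TPM + 1)) of the other genes of the apoptosis pathway, 1 line per gene from its lowest to its highest mouse, grouped by list; the dotted line marks 1 TPM. Pim2, among the regulators, has the longest line, and 45 of 50 genes have a mean of at least 1 TPM.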

How the data were processed

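Gene expression was measured by RNA sequencing of c-Kit-enriched splenocytes from 3 leukemic mice, with RNA integrity numbers above 8 and reads of 150 nt per the labels. The authors deposited 1 table of TPM per gene symbol. Its name says log2 FPKM, but the values are linear, and their near-equal column sums fit TPM. kallisto and the build mm10 are named in the submitters' processing notes, and the annotation is not given in the sources used here. The table also holds 3 per-sample columns of no sample of this series, which were not used. Of 28987 rows, 795 without a symbol (0.532% to 0.608% of the column sums) and 27 with a date for a symbol were left out, and 90 symbols on several rows were summed.

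Levels were analysed as log2(TPM + 1). Genes with a mean of at least 1 TPM counted as detected, and a difference of at least 1 log2 unit between a pair of mice as 2-fold. With 1 group, contrasts between roles used an exact sign-flip permutation test over mice. The script was tested on simulated data. Older symbols were matched through the RefSeq table. Copies were sought with blastn 2.17.0 (at least 95% identity over 200 nt). Python 3.11.15, numpy 2.4.6, pandas 2.3.3 and matplotlib 3.10.9 were used.

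Named genes are the 10 members, the most abundant gene of each pathway list, and list genes at 0 in all mice or differing 2-fold. One gene that this rule names is not reported here. The members and lists were chosen with earlier results of these data known. Alternatives covered pseudocount, thresholds, scaling, Mcl1, and each mouse left out.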

Additional observations from a re-analysis of the deposited data

How the results depend on the processing

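No paired analysis was possible because all mice form 1 group, so that no groups share replicate numbers, while the contrasts between roles are differences within each mouse. Leaving out Bcl2, and leaving out symbols on several rows, were chosen after seeing the data. Of 90 recomputed values 77 kept their direction and size class. These include all 40 recomputations of single member levels, which could not come out otherwise and lend no support. Leaving out 1 of 3 mice cannot move a mean by the SD over those mice, and the scaling shifts nearly cancel over mice. Of the other 50, 37 stayed the same, 10 moved and 3 reversed. Part of these 37 was fixed in advance too and lends no support. Leaving out 1 mouse could not move the median member level or the survival share by its SD. It could not reverse a role contrast that had the same sign in all 3 mice. Member counts could not change with thresholds or symbols on several rows, since each member had 1 row and at least 25.0 TPM on average. The count of detected members could not change with a mouse left out, since the lowest value of any member was 21.8 TPM.

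The survival share moved from 36.9% to 10.2% without Mcl1. The survival to effector log2 ratio of 0.87 turned to -0.49 when averaged per gene on the log2 scale and to -1.55 without Mcl1, and the survival to BH3-only ratio of -0.21 turned to 0.069 when averaged per gene. The median SD of the members, 0.247, was 0.193 without Bcl2 and ranged from 0.148 (without mouse 2) to 0.228 with a mouse left out. The number of members with a 2-fold difference fell from 1 to 0 after upper-quartile scaling and ranged from 0 (without mouse 1 or mouse 3) to 1. Among other apoptosis genes the number fell from 2 to 1 at a threshold of 5 TPM, which removes Bok, and ranged from 0 (without mouse 1) to 2, being 1 without mouse 3. Depth is unknown, so counting error in these values cannot be stated.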
